A study of Mus musculus with 6 samples.

Results

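Tetraspanins are small membrane proteins that cross the membrane repeatedly and gather partner proteins into microdomains. The 8 tetraspanin genes described here are Cd9, Cd37, Cd53, Cd63, Cd81, Cd82, Cd151 and Tspan4, which are known from B cells, from macrophages or from both. They were taken as all probe sets annotated to 1 of these symbols, which gave 13 of the 12422 probe sets of the array that are not controls. Of the 13, 11 passed the filter on dim probe sets and were tested, and at least 1 probe set passed for each of the 8 genes.

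Whole splenic B cells from adult mice were profiled on 6 Affymetrix MG_U74Av2 arrays, 2 for each of 3 groups. In Btk KO mice the gene for the tyrosine kinase Btk, which acts downstream of the B cell receptor, is disrupted. That line was made on SW129 and then crossed to CBA for 9 generations. Xid mice, of strain CBA/N, make Btk with the substitution R28C. The third group is wild type CBA. In each mutant line the Btk defect and other differences of the strain from CBA cannot be told apart. A first run of 3 arrays, 1 of each group, was followed by a second run of 3 arrays with new RNA from new mice. How the B cells were isolated is not given in the labels. Whether single or pooled animals gave each RNA is not in the labels, so p-values measure the spread between these RNAs.

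CD81 is broadly expressed and in B cells associates with the complement receptor CR2. CD37 and CD53 are found mainly on leukocytes, and CD9 is a known surface mark of marginal zone B cells, B-1 cells and plasma cells in mice. CD63 lies in late endosomes and lysosomes, CD151 binds laminin-binding integrins, CD82 associates with integrins and with MHC class II molecules, and TSPAN4 is known from the migrasomes that migrating cells, macrophages among them, leave behind.

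The deposited values are linear intensities in scaled units, with a median between 32.65 and 37.7 per array and no detection calls. Btk itself, read by its brighter probe set, measured 276.1 and 173.6 in Btk KO and 841 and 643.9 in Xid, against 874.1 and 749.8 in CBA. The log2 difference in Btk KO was -1.86 ± 0.27 (SE, limma adjusted p = 0.052, and 0.0053 with the run as a block). Dropping Btk KO of run 1 gave -2.18 (limma adjusted p = 0.049). The position of the probes within Btk was not used here. In run 1 the RNA of Btk KO gave a Gapdh ratio of 3' over 5' control probes of 10.4, against 0.756 to 1.61 on the other 5 arrays, and the Actb ratio was also highest there, at 3.61 against at most 1.66. Values without that array are given beside the calls it decides. The sample was labelled as B cells, and all 12 B cell markers passed the filter. Their summed intensity was 19822.9 and 18603.2 in Btk KO and 26674.7 and 21022.3 in Xid, against 26376 and 25550 in CBA. Macrophage and monocyte markers, of which 17 of 22 were measured and none was listed at 0 on any array (0 values), summed to 11309.5 and 15419.5 in Btk KO and 7373.4 and 11239.1 in Xid, against 3561.8 and 5314.6 in CBA. Over all probe sets limma called 0.161% higher in Btk KO and 0.0134% in Xid, and with the run as a block 1.42% and 0.362%. Without the block 3 of the 17 rose in Btk KO and 0 in Xid, and with it 13 and 6 (limma). The median log2 difference of the 17 from CBA was 1.03 in Xid and 1.62 in Btk KO, and 1.87 in Btk KO without its array of run 1. Of the other 5, Marco, Msr1, Siglec1 and Axl were dim and Slc40a1 had no probe set under that symbol alone. Neutrophil markers (7 measured) summed to 862.8 and 1575.5 in Btk KO and 270.7 and 247.7 in Xid, against 182.3 and 232.8 in CBA. NK and cytotoxic markers (9 measured) summed to 827.7 and 1657.8 in Btk KO and 553.8 and 841.1 in Xid, against 377.6 and 528.5 in CBA. In Btk KO 4 of them rose with the block, where 1.42% of all probe sets were called higher. Their median log2 difference there was 1.36, and 1.77 without its array of run 1. In bulk RNA, fewer cells of a type and less RNA per cell cannot be told apart.

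The results turn on Tspan4 and Cd9, whose transcripts lay furthest from those of CBA, in opposite directions. Their promoters are shown for orientation, from 250 bases before to 50 bases after each annotated start, as listed by RefSeq for GRCm38.p6. Entries were found for all 8 genes, 13 promoters in all. Capitals mark matches on either strand to the GC box (GGGCGG), the PU.1 core (GAGGAA), the TATA box (TATAAA), the E box (CACGTG) and the octamer (ATGCAAAT). No matches overlap one another in the sequences shown.
Tspan4, first start, chr7:141474986-141475285, plus strand: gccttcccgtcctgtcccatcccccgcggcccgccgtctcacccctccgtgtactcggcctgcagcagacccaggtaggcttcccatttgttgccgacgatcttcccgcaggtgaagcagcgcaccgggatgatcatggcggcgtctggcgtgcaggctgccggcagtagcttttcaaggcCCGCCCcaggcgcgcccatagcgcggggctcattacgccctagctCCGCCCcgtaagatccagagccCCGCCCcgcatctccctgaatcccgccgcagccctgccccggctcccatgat
Tspan4, second start, chr7:141476130-141476429, plus strand: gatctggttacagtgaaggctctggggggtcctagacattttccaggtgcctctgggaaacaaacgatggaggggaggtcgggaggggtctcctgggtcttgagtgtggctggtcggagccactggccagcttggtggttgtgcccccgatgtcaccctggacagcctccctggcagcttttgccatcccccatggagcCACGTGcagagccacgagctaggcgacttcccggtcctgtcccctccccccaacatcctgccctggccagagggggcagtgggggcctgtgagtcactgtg
Cd9, chr6:125494711-125495010, minus strand: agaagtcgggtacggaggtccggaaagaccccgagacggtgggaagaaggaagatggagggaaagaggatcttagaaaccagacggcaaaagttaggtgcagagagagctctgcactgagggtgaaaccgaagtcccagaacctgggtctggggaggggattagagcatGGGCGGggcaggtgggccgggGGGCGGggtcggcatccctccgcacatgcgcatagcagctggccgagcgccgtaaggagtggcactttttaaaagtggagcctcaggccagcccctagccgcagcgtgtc
The first Tspan4 promoter holds 3 GC boxes, all on the reverse strand, and the second holds 1 E box. The Cd9 promoter holds 2 GC boxes. A GC box occurred in 35.7% of all 32851 promoters of this length and an E box in 7.15%, so a match is a description of these letters and not a site. The other motifs occurred in 28.3% (PU.1 core), 13.6% (TATA box) and 1.74% (octamer) of promoters, and had 0 matches in these 3. Tspan4 and Cd151 lie close together on chromosome 7, with 1 protein-coding gene, Polr2l, between them. Cd81 lies directly beside Tspan32 on the same chromosome, and Cd82 directly beside Tspan18 on chromosome 2.

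Across the comparisons 1 tetraspanin transcript passed the test, and it was Tspan4. Differences were tested with limma on log2 values over all 7453 probe sets that passed the filter, with Benjamini-Hochberg adjustment at a threshold of 0.05. In Btk KO against CBA, 1 of the 11 tetraspanin probe sets rose and 0 fell, while 0.161% of all tested probe sets were called higher and 0.0134% lower. At an unadjusted p under 0.05 there were 3 of 11 (Tspan4, Cd9 and 1 probe set of Cd151), with 8.83% of all probe sets there. In Xid against CBA, 0 of 11 passed, where 0.0134% of all probe sets were called higher and 0.0537% lower. The same 3 probe sets had an unadjusted p under 0.05, with 4.43% of all probe sets there. The run numbers pair the arrays, and with the run as a block Tspan4 also rose in Xid (1 of 11), where limma then called 0.362% of all probe sets higher and 0.121% lower. With the block, 1 of 11 rose in Btk KO, where 1.42% of all were called higher and 0.805% lower. At an unadjusted p under 0.05 the blocked fit also had 3 of 11 in each line, with 15.1% of all probe sets there in Btk KO and 8.1% in Xid. Both mutant lines are set against the same 2 CBA arrays, so their differences from CBA are not independent.

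In Btk KO against Xid, 0 of 11 passed with limma, with or without the block. Without the block 0.0268% of all probe sets were called higher and 0.0134% lower, and with it 0.107% were called higher and 0.0805% lower. At an unadjusted p under 0.05 there were 0 of 11 (3.61% of all), and with the block 1 of 11, Tspan4 (7.31% of all). Against CBA, the mean of both mutant lines gave 1 probe set that rose, Tspan4 again, with 0.0939% of all probe sets called higher and 0.0537% lower. With the block it was again 1, with 1.29% called higher and 0.644% lower. The Tspan4 difference for that mean was 2.58 ± 0.24 (limma adjusted p = 0.023, and 0.0054 with the block).

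**Figure D1:**
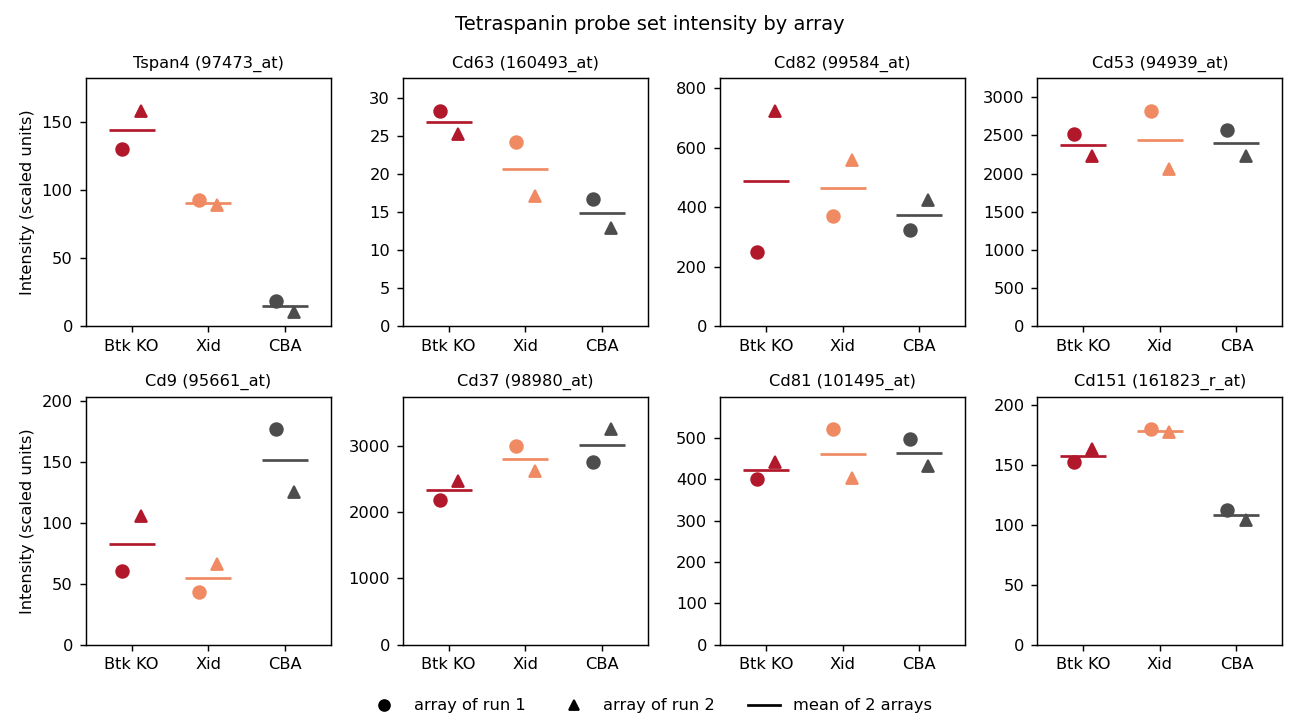
Intensity (scaled units) of the brightest probe set of each tetraspanin gene on each array, with circles for run 1, triangles for run 2 and bars for the mean of the 2 arrays of a group. Tspan4 read 88.6 to 158.2 on the 4 mutant arrays, against 10.6 and 18.2 in CBA, while Cd9 read 43 to 105.3 on the mutant arrays, against 125.3 and 176.5.

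Tspan4 rose in Btk KO. Its single probe set (97473_at) read 130.2 and 158.2 in Btk KO and 92.7 and 88.6 in Xid, against 18.2 and 10.6 in CBA. All 4 mutant arrays lay above both CBA arrays, and both Btk KO arrays lay above both Xid arrays. The mean level was 144 ± 19.8 in Btk KO and 90.7 ± 2.9 in Xid, against 14.4 ± 5.37 in CBA (SD, n = 2 each). In Btk KO against CBA the log2 difference was 2.90 ± 0.28 (SE), with limma adjusted p = 0.025, and it was 2.49 within run 1 and 3.31 within run 2. With the run block adjusted p = 0.0053. Without the Btk KO array of run 1 the difference was 3.03 (adjusted p = 0.049), and 3.19 with the block (0.010).

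In Xid against CBA the log2 difference of Tspan4 was 2.27 ± 0.28, at 2.03 and 2.51 within the runs. It did not pass without the block (limma adjusted p = 0.056) and rose with it (adjusted p = 0.019). Between the mutant lines, Btk KO exceeded Xid by 0.63 ± 0.28 on the log2 scale, which did not pass (limma adjusted p = 0.998, and 0.67 with the block). The 95% interval of that difference, unadjusted, ran from -0.02 to 1.28, and with the block from 0.01 to 1.25.

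The CBA level of Tspan4 lies below the mean intensity of 19.83 at which probe sets were left out as dim. Tspan4 thus passed the filter through its mutant arrays, and its log2 difference moves with the constant added before taking logs. In Btk KO it was 3.28 with 1 added and 1.93 with 32 added, in place of 6. Without the block, the call in Btk KO was lost when any single array of Xid or CBA was left out. The calls of all other probe sets in that comparison were lost there too. The Tspan4 difference itself ranged from 2.63 to 3.17 over the single arrays left out, and leaving out an Xid array does not change it. Between the mutant lines and CBA the summed macrophage and monocyte markers given above ran with Tspan4. They were higher on all 4 mutant arrays than on both CBA arrays, as were the neutrophil and the NK and cytotoxic sums. Within Xid and within CBA the array with the higher macrophage sum had the lower Tspan4 value, and within Btk KO the higher. Of the macrophage markers, Mrc1, the mannose receptor, rose in Btk KO by 2.63 ± 0.25. Spic, the factor that red pulp macrophages need to develop, rose by 2.32 ± 0.23 (limma adjusted p = 0.025 for each). Stromal and endothelial markers, 5 of 12 measured, summed to 446.8 and 424.7 in Btk KO and 472.7 and 452.1 in Xid, against 382.6 and 339.3 in CBA. The part of these cells in the Tspan4 signal was not tested.

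**Figure D2:**
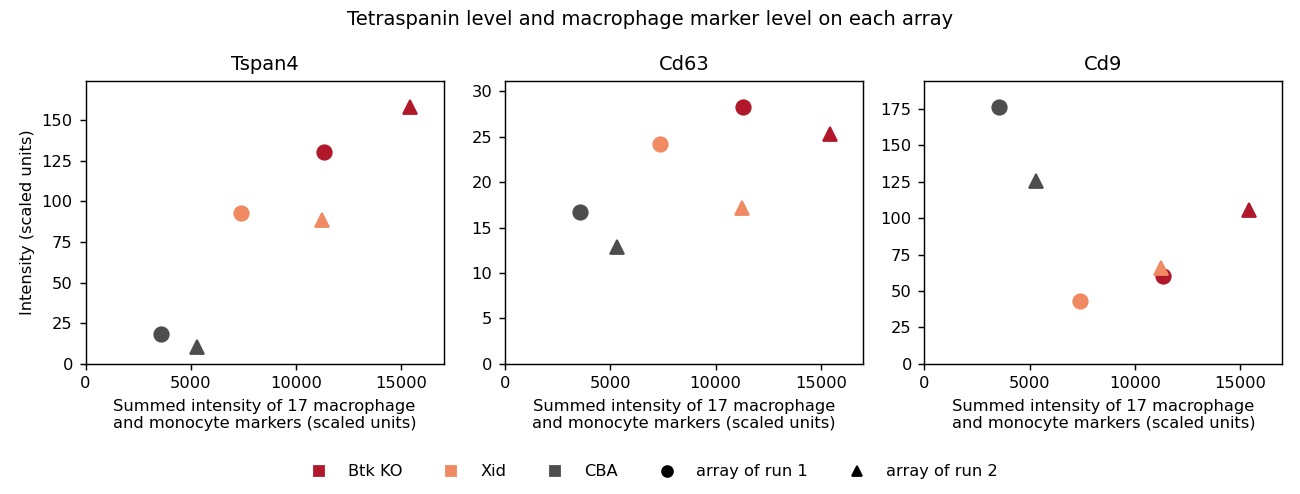
Intensity of Tspan4, Cd63 and Cd9 (vertical axes, scaled units) against the summed intensity of the 17 measured macrophage and monocyte markers (horizontal axis, scaled units) on each of the 6 arrays. The CBA arrays have the lowest marker sums, at 3561.8 and 5314.6, together with the lowest Tspan4 and Cd63 values and the highest Cd9 values. Within each group the array with the higher marker sum has the lower Cd63 value. For Tspan4 this holds within Xid and CBA but not within Btk KO, and for Cd9 within CBA only.

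Cd9 read lower on all 4 mutant arrays than on both CBA arrays, without passing the test. Its probe set (95661_at) read 60.1 and 105.3 in Btk KO and 43 and 65.7 in Xid, against 176.5 and 125.3 in CBA. The mutant and CBA arrays do not overlap, whereas the Btk KO and Xid arrays do. The mean level was 82.7 ± 32 in Btk KO and 54.4 ± 16.1 in Xid, against 151 ± 36.2 in CBA (SD, n = 2 each). In Xid against CBA the log2 difference was -1.38 ± 0.34, at -1.90 in run 1 and -0.87 in run 2, with limma adjusted p = 0.48, and 0.16 with the run block. Over all 7453 probe sets it ranked 17th from the lowest difference. In Btk KO against CBA it was -0.85 ± 0.34, at -1.47 and -0.24 within the runs (limma adjusted p = 0.53, and 0.25 with the block). Leaving out Btk KO of run 1, where Gapdh had the ratio of 10.4, the difference was -0.48. Between the mutant lines Cd9 differed by 0.53 ± 0.34 (limma adjusted p = 0.998), with an unadjusted 95% interval from -0.27 to 1.33.

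Cd9 is also known from platelets, macrophages and plasma cells, and these lists were read beside it. Marginal zone markers, of which 5 of 9 were measured, summed to 1453 and 1417.5 in Btk KO and 1648.4 and 1233.4 in Xid, against 1785.2 and 1740.6 in CBA, so all 4 mutant sums lay below both CBA sums. Cr2, listed also among the partners of Cd81, is 1 of the 5. Dtx1, the brightest of the 5, read 752 and 691.2 in Btk KO and 1086.7 and 637.1 in Xid, against 936.8 and 1052.1 in CBA. Cd1d1 ran the other way in Btk KO, at 409.6 and 420.6 against 395 and 310 in CBA. By log2 difference, 2 of the 5 were higher than CBA in Btk KO and 0 in Xid. None of the 5 passed (0 with limma, with or without the block). Plasma cell markers, 4 of 7 measured, summed to 1432.9 and 1254.7 in Btk KO and 1877.6 and 1186 in Xid, against 1843.6 and 2161 in CBA, with overlap between Xid and CBA. Of the 4, Jchain, the joining chain of secreted antibodies, read 503.4 and 400.9 in Btk KO and 535 and 366.4 in Xid, against 883.9 and 1165.6 in CBA, without overlap. It did not pass in either line (limma adjusted p = 0.18 in Btk KO and 0.47 in Xid, and 0.052 and 0.13 with the block). For the mean of both lines it fell with the block (limma adjusted p = 0.034), where 0.644% of all probe sets were called lower. The rest of the 4 moved less: Xbp1, Irf4 and Creld2 differed by -0.10, -0.20 and -0.10 in Btk KO and by -0.14, 0.15 and -0.15 in Xid. Platelet markers, 2 of 10 measured, summed to 82.3 and 93.1 in Btk KO and 59.2 and 97.3 in Xid, against 91.5 and 78 in CBA, and these groups overlap. Between the mutant lines and CBA, macrophage markers ran the other way from Cd9. Within Btk KO and within Xid, however, both were higher in run 2 than in run 1. The part of each cell type in the Cd9 signal was not tested.

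**Figure D3:**
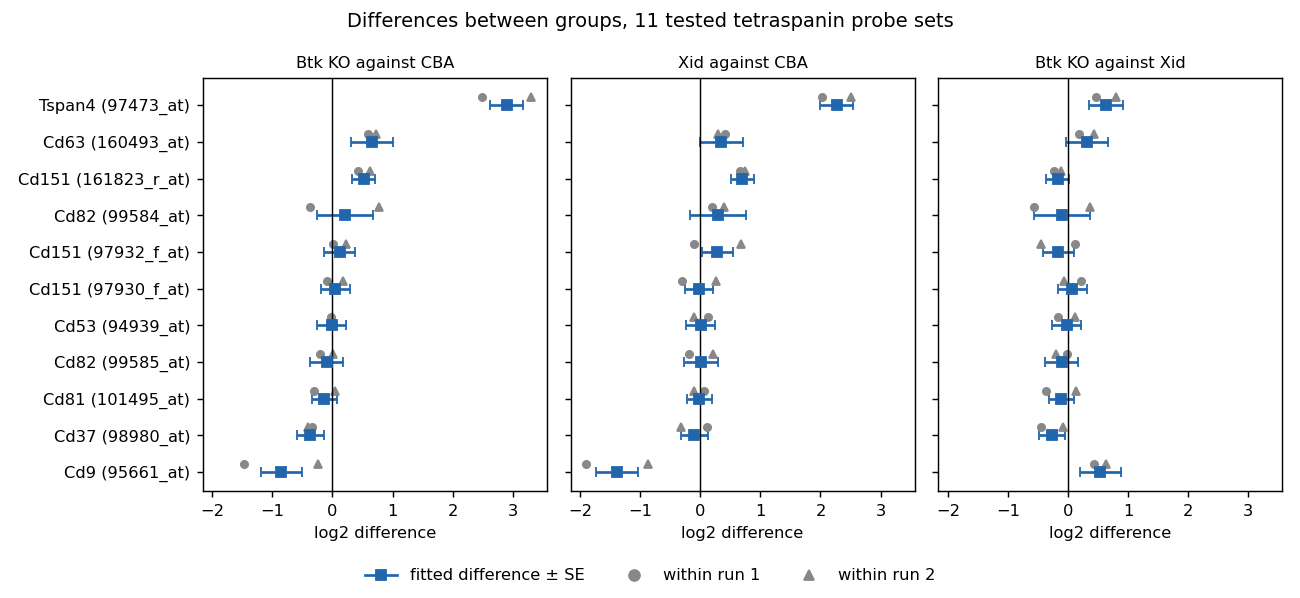
Log2 differences of the 11 tested tetraspanin probe sets in 3 comparisons, with squares and bars for the fitted difference and its SE and grey points for the difference within run 1 and run 2. Tspan4 stands at 2.90 in Btk KO and 2.27 in Xid and Cd9 at -0.85 and -1.38, while the other 9 lie between -0.37 and 0.70 against CBA.

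Cd81 did not pass in any comparison. It read 402.1 and 443.2 in Btk KO and 521.5 and 402.5 in Xid, against 496.8 and 432.5 in CBA (probe set 101495_at). The 3 groups overlap. Its log2 difference was -0.13 ± 0.21 in Btk KO and -0.02 ± 0.21 in Xid, with unadjusted 95% intervals from -0.62 to 0.35 and from -0.50 to 0.47 (limma adjusted p = 0.92 and 0.999). Cr2, the complement receptor that associates with CD81, read 95.3 ± 21.3 in Btk KO and 83.8 ± 8.56 in Xid, against 108 ± 82.5 in CBA (SD, n = 2 each), and its spread was widest in CBA. Ifitm1, an interferon-induced membrane protein whose human counterpart associates with CD81, read 29.1 ± 5.44 in Btk KO and 21.7 ± 11.1 in Xid, against 22.5 ± 3.39 in CBA, and differed from CBA by 0.29 and -0.10 in Btk KO and Xid.

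Cd37 and Cd53, the leukocyte tetraspanins, did not pass in any comparison. Cd37, which in mice restrains B cell and T cell responses and supports antibody production, read 2190.5 and 2465.2 in Btk KO and 3002.8 and 2614.1 in Xid, against 2762.5 and 3252.5 in CBA (probe set 98980_at). Both Btk KO arrays lay below all 4 other arrays. The log2 difference in Btk KO was -0.37 ± 0.22, at -0.33 and -0.40 within the runs, and did not pass (limma adjusted p = 0.73, and 0.41 with the block). It was -0.28 without Btk KO of run 1. In Xid it was -0.10 ± 0.22, with 0.12 and -0.31 within the runs, so the runs disagreed in sign. In Btk KO the summed B cell markers were also below those of the other 4 arrays, and their part in the Cd37 signal was not tested.

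Cd53 read 2524.6 and 2229.1 in Btk KO and 2824.9 and 2064.2 in Xid, against 2577.8 and 2229.1 in CBA (probe set 94939_at). Run 1 exceeded run 2 in each group, and the groups overlap. The log2 difference was -0.015 ± 0.24 in Btk KO and 0.011 ± 0.24 in Xid. Their unadjusted 95% intervals ran from -0.58 to 0.55 and from -0.56 to 0.58, so changes of about these sizes are not excluded with 2 arrays a group. These intervals are not the limit of what the adjusted test can call: Cd9 at -1.38 in Xid did not pass it.

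Cd82, an associate of integrins and MHC class II molecules, had 3 probe sets, of which the 2 tested ones did not run together. The brighter tested probe set (99584_at) read 249.6 and 723.7 in Btk KO and 371.3 and 558.4 in Xid, against 323.1 and 422.3 in CBA. Run 2 exceeded run 1 in all groups, most in Btk KO, where run 1 had the Gapdh ratio of 10.4. Its log2 difference in Btk KO was 0.20 ± 0.47, at -0.36 and 0.77 within the runs, and 0.96 without that array (limma adjusted p = 0.95 and 0.44). The other tested probe set (99585_at) read 96.9 and 74.4 in Btk KO and 98.4 and 86.1 in Xid, against 112.9 and 73.6 in CBA, so that run 1 exceeded run 2. Over the 6 arrays the log2 values of these 2 probe sets had a Pearson r of -0.70, as a description. The third (161861_i_at) read at most 5.8 and was left out as dim.

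Cd63, the tetraspanin of late endosomes and lysosomes, read 28.3 and 25.3 in Btk KO and 24.2 and 17.1 in Xid, against 16.7 and 12.9 in CBA (probe set 160493_at). The order of Btk KO over Xid over CBA held without overlap, but all values are near the floor. Both CBA values lie below the filter of 19.83, so Cd63 passed it only through the mutant arrays. The mean intensity of Cd63 over the arrays, 20.2 on the log scale turned back, lies just above that filter. Among the 13 probe sets of the 8 genes, the nearest below the filter is the dim one of Cd82 at 2.75. The log2 difference was 0.66 ± 0.35 in Btk KO and 0.35 ± 0.35 in Xid, at 0.60 and 0.73 and at 0.41 and 0.29 within the runs. Neither passed (limma adjusted p = 0.68 and 0.999). The macrophage and monocyte marker sums were also higher on the mutant arrays than in CBA. Within each group, however, Cd63 read lower on the array with the higher sum. The part of these markers in the Cd63 signal was not tested. Without overlap, 3 of the 11 probe sets lay above CBA in Btk KO (Tspan4, Cd63 and 1 of Cd151), where 20% of all tested probe sets did, and 2 lay below (Cd9 and Cd37), where 16% did. In Xid the same 3 lay above CBA (17% of all) and Cd9 alone below (14.4% of all). Tspan4 and Cd63 read below the filter level on both CBA arrays and passed it through the mutant arrays. Their place above CBA in these counts is therefore tied to the filter. Between the mutant lines, 2 lay above in Btk KO (Tspan4 and Cd63, with 14.2% of all) and 2 below (Cd37 and 1 probe set of Cd151, with 12.3% of all).

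Genes of endosomes and lysosomes, where CD63 resides, were read as a list of 23, of which 19 were measured. Their median log2 difference was 0.40 in Btk KO, against 0.01 over all probe sets, and 0.24 in Xid, against 0.01. Without the block 0 passed with limma, while with it 2 of 19 rose in Btk KO and 1 in Xid. Of all probe sets 1.42% and 0.362% were called higher there with the block. Ctsd, the lysosomal protease cathepsin D, measured 1362 ± 258 in Btk KO and 894 ± 202 in Xid, against 439 ± 142 in CBA (SD, n = 2 each). It differed from CBA by 1.64 and 1.03 (limma adjusted p = 0.11 and 0.59, and 0.0063 and 0.047 with the block). Ctsb, cathepsin B, differed by 1.22 in Btk KO (limma adjusted p = 0.22, and 0.019 with the block, which became 0.11 without Btk KO of run 1). Hexa, a hexosaminidase subunit, and Lamp1, a lysosomal membrane protein, differed by 0.66 and 0.59 in Btk KO and did not pass in either fit. These genes are also abundant in macrophages, whose markers were higher on the same arrays, and Cd68 of this list is itself among the 17 macrophage markers.

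Cd151, a partner of laminin-binding integrins, was read by 4 probe sets, and the 3 tested ones disagreed. The probe set 161823_r_at read 152.4 and 163.6 in Btk KO and 180 and 177.8 in Xid, against 112.1 and 104.2 in CBA. All 4 mutant arrays lay above both CBA arrays, and both Xid arrays above both Btk KO arrays. Its log2 difference was 0.52 ± 0.19 in Btk KO and 0.70 ± 0.19 in Xid, which did not pass (limma adjusted p = 0.48 and 0.58, and 0.21 and 0.23 with the block). The probe sets 97930_f_at and 97932_f_at read 85.3 to 118.4 and 69.2 to 113.9 over the 6 arrays, and their groups overlap. They differed from CBA by 0.05 and 0.12 in Btk KO and by -0.02 and 0.28 in Xid. The fourth (97931_i_at) read at most 3.8 and was left out as dim. In Affymetrix naming, the suffix f marks probes that can read a family of related sequences, i an incomplete set of probes and r a set for which selection rules were relaxed. With Pearson r between 0.03 and 0.54 among the 3 tested probe sets over 6 arrays, no single direction can be given for Cd151.

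**Figure D4:**
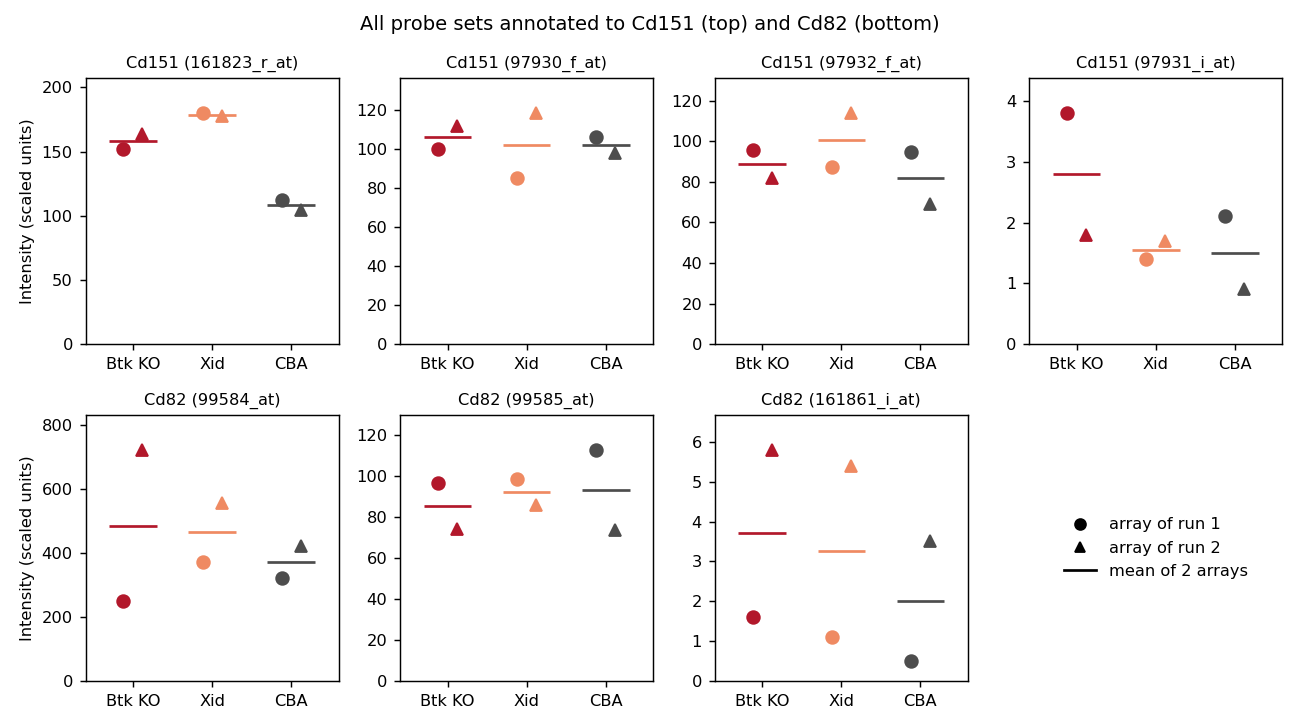
Intensity (scaled units) on each array of the 4 probe sets annotated to Cd151 (top) and the 3 annotated to Cd82 (bottom), with circles for run 1, triangles for run 2 and bars for group means. The groups separate on 161823_r_at alone among the Cd151 probe sets above the filter, and the 2 brighter Cd82 probe sets differ in opposite ways between the runs.

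Of 23 further tetraspanins, 5 were measured, 7 were dim and 11 had no probe set under that symbol alone. None of the 5 passed in any comparison (0 with limma, with or without the block). Tspan33, known from red cell precursors and activated B cells, read 121.5 and 79.9 in Btk KO and 25 and 69.7 in Xid, against 35.3 and 36 in CBA. It differed by 1.33 ± 0.44 in Btk KO (limma adjusted p = 0.39, and 0.18 with the block), and by 1.04 without the array of run 1. The 8 measured erythroid markers summed to 15919.2 and 8141 in Btk KO and 7261.2 and 5748.1 in Xid, against 4601.5 and 6268.5 in CBA, with overlap between Xid and CBA, and their part in the Tspan33 signal was not tested. Tspan32, a tetraspanin of blood cells and the neighbour of Cd81, read 629.8 and 592.8 in Btk KO and 757.8 and 684.3 in Xid, against 798.6 and 772.6 in CBA. It differed by -0.36 ± 0.18 in Btk KO and did not pass (limma adjusted p = 0.65). Tspan31 differed by -0.36, Tspan13 by 0.39 and Tspan9 by 0.17 in Btk KO. The median of the 5 was 0.17 in Btk KO and 0.15 in Xid, and it differed in sign between the runs, at -0.34 and 0.84 in Btk KO and at -0.33 and 0.66 in Xid.

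Co-receptor and integrin partners were read as a list of 21, of which 14 were measured. In Btk KO 1 of the 14 rose, and 3 with the block, where 0.161% and 1.42% of all probe sets were called higher. None fell (0). In Xid none passed (0 with limma). Vcam1 rose there with the block, by 1.42 (adjusted p = 0.034), where 0.362% of all probe sets were called higher. The median log2 difference was 0.41 in Btk KO and 0.08 in Xid, against 0.01 over all probe sets in each. The call without the block was Vcam1, the ligand of the integrin made of Itga4 and Itgb1, at 1649 ± 165 in Btk KO and 917 ± 208 in Xid, against 337 ± 46.1 in CBA (SD, n = 2 each). Its difference was 2.27 ± 0.23 in Btk KO (limma adjusted p = 0.025). It is also among the 17 macrophage markers. Itgb5, an integrin beta chain that pairs with Itgav, measured 154 ± 24.5 in Btk KO and 114 ± 45 in Xid, against 30.7 ± 24.3 in CBA, a difference of 2.30 in Btk KO (limma adjusted p = 0.17, and 0.012 with the block). The third call with the block was Ifitm3, an interferon-induced relative of Ifitm1, named here after its values were seen, at 1.11 in Btk KO (limma adjusted p = 0.57, and 0.037 with the block). Without Btk KO of run 1 that call was lost, while the Ifitm3 difference in Btk KO, fitted without the block, was 1.63. Igsf8, an immunoglobulin superfamily protein that binds CD9 and CD81 directly, read 291.4 and 422.5 in Btk KO and 304.4 and 385.7 in Xid, against 159.4 and 255.2 in CBA. It differed by 0.78 ± 0.29 in Btk KO and 0.75 ± 0.29 in Xid and did not pass in either line (limma adjusted p = 0.49 and 0.999, and 0.064 and 0.16 with the block). With the block it rose for the mean of both lines, by 0.76 (limma adjusted p = 0.046), as 1 of 4 such calls in this list. In that fit 1.29% of all probe sets were called higher. Ptgfrn, its relative, read at most 16.4 and was dim. Itgav differed by 0.76, Itgb1 by 0.52 and Itga4 by 0.20 in Btk KO, without passing.

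**Figure D5:**
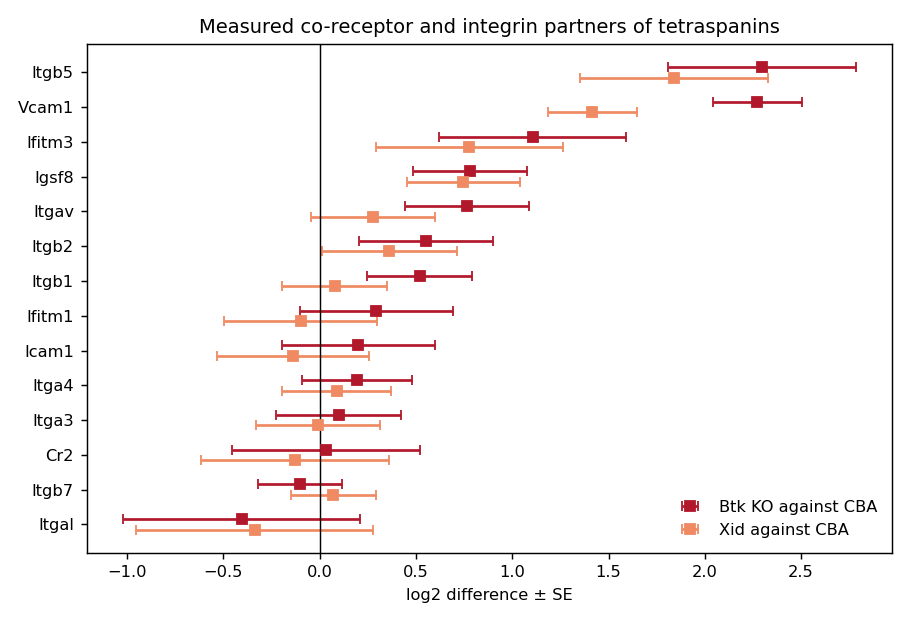
Log2 differences from CBA (horizontal axis, with SE) of the 14 measured co-receptor and integrin partners of tetraspanins, in Btk KO (dark) and Xid (light). Itgb5 and Vcam1 lie furthest to the right, at 2.30 and 2.27 in Btk KO, while Cr2 and Itga4 lie near 0.

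A list of 24 other proteins known to bind or meet tetraspanins had 17 measured genes, with a median of -0.09 in Btk KO and -0.02 in Xid. Without the block 0 passed with limma, and with it Cd47 rose in Xid, where 0.362% of all probe sets were called higher. Cd47, an integrin-associated protein, measured 1575 ± 253 in Xid against 645 ± 198 in CBA, a difference of 1.31 (limma adjusted p = 0.47 without the block and 0.023 with it), whereas it was 772 ± 205 in Btk KO. Timp1, a secreted inhibitor of metalloproteases that binds CD63, differed by 1.13 in Btk KO and 1.04 in Xid. H2-Ab1, a chain of MHC class II, differed by -0.69 in Btk KO, and neither gene passed in either fit. Without Btk KO of run 1, Timp1 passed with the block in Btk KO (limma adjusted p = 0.039).

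Likeness to the brightest probe set of each tetraspanin was measured as Pearson r of log2 values over the 6 arrays, among the brightest probe sets of 5588 other named genes. For Cd151 and Cd82, whose tested probe sets disagreed, this was 161823_r_at and 99584_at alone. With so many genes and 6 arrays high values arise readily, and 5 to 33 genes lay above 0.95 for each tetraspanin. Closest to Tspan4 were Dnajb9 (0.99), Abcc3 (0.98) and Smad1 (0.98), of 33 above that level. Dnajb9, a chaperone of the endoplasmic reticulum, read 215.6 and 253.4 in Btk KO and 223.7 and 207.2 in Xid, against 119.4 and 114.9 in CBA. Closest to Cd9 were Csrp2, Eif2b1 and Tmem131, each at 0.96. Csrp2, a LIM domain protein, read 29.4 and 41.6 in Btk KO and 21.2 and 22.4 in Xid, against 58.8 and 43.1 in CBA. The other members were closest to Il1a, Strn and Sox7 for Cd63 (0.98 to 0.99), to Glipr2, Dhx15 and Septin9 for Cd151 (0.98 to 0.99) and to Cops6, Cebpg and Itpa for Cd37 (0.98 to 0.99). They were closest to Mrpl13, Stag2 and Rsu1 for Cd81 (0.97 to 0.98), to Slc2a3, Ddx3x and Synj2bp for Cd53 (0.98 to 0.99) and to Mbp, Eln and Nab1 for Cd82 (0.98 to 0.99).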

How the data were processed

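The authors deposited 1 linear intensity per probe set and array, already scaled: leaving out 2% of values at each end, the mean came to between 100.056 and 100.062 per array. How the probes were summarised is not given in the sources used here, and no further scaling was applied. Controls (66 probe sets) were left out. The probe annotation, which can be old, gives 1 symbol to 10833 of the other 12422 probe sets, several to 396 and none to 1193; symbols were updated through the gene number.

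Intensities were taken to log2 after adding 6, the 20th percentile of all values. Probe sets below the 40th percentile of the mean log2 value (4969) were left out as dim. The remaining 7453 went into 1 limma fit with a mean for each of the 3 groups, with version 3.58.1 under R 4.3.3 (lmFit, and eBayes with an intensity trend; two-sided, 3 residual degrees of freedom). The number of arrays limits precision. A listed partner gene is not reported here. The fit was tested on simulated data. Figures were drawn with matplotlib 3.10.9.

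The replicate numbers mark a shared run: per the design label the second set used new mice, and per the file headers each set shared a chip lot. Same-numbered arrays deviated together from their group means, with correlations of 0.31, 0.37 and 0.44. Blocked values stand beside a result whose call they change. The header of the Btk KO array of run 1 carries another day than the other 2 of that run, so results are also given without it. Tetraspanins and gene lists were chosen with earlier results of these data known. Named genes are all members, up to 4 genes of each partner list by smallest p, co-receptor partners named at the outset and the 3 nearest patterns. Alternatives were the block, quantile and median scaling, pseudocounts of 1 and 32, other filters, no intensity trend, the compared groups alone, and each array left out.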

Additional observations from a re-analysis of the deposited data

How the results depend on the processing

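The Tspan4 call in Btk KO against CBA held with the replicate block, with quantile and median scaling, with pseudocounts of 1 and 32, without the filter and with a stricter one. It was lost, giving 0 tetraspanin probe sets, without the intensity trend and with the compared groups alone (adjusted p = 0.053 and 0.064), and the count ranged from 0 to 1 when single arrays were left out. Over all probe sets, limma called 13 in Btk KO against CBA, 166 with the block and 0 without the trend, and 5, 36 and 4 in Xid against CBA. Where a group is left with 1 array, that array is assumed to vary like the others. In Xid the count was 1 with the replicate block, also without Btk KO of run 1, and 0 in all fits without the block. For the mean of both lines it was 1, and 0 without the trend, with a range from 0 to 1 over single arrays. In Btk KO against Xid it was 0 in all fits.

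Of 525 recomputed differences 487 kept their sign. The 38 that turned belong to differences of at most 0.20 in size, none called in any fit, and the cause was not tested. With quantile scaling Cd37 in Xid was 0.0065, and Cd53 was 0.089 in Btk KO and 0.0036 between the mutant lines. With median centring Cd53 and Cd82 (99585_at) were each -0.067 in Xid, and Cd151 (97930_f_at) was -0.065 in Btk KO. In the blocked fit that leaves out Btk KO of run 1, Cd53 was 0.061 against CBA and 0.050 against Xid, Cd81 0.078 and 0.094, and Cd82 (99584_at) 0.42 against Xid. Over single arrays left out, the ranges were -0.029 to 0.12 for Cd151 (97930_f_at), -0.091 to 0.33 for Cd151 (97932_f_at), -0.12 to 0.090 for Cd53, -0.55 to 0.96 for Cd82 (99584_at) and -0.39 to 0.19 for Cd82 (99585_at) in Btk KO against CBA. They were -0.25 to 0.20 for Cd151 (97930_f_at), -0.21 to 0.020 for Cd37, -0.22 to 0.24 for Cd53, -0.20 to 0.17 for Cd81 and -0.28 to 0.30 for Cd82 (99585_at) in Xid against CBA. They were -0.15 to 0.29 for Cd151 (97930_f_at), -0.34 to 0.016 for Cd151 (97932_f_at), -0.25 to 0.20 for Cd53, -0.30 to 0.068 for Cd81, -0.85 to 0.66 for Cd82 (99584_at) and -0.29 to 0.070 for Cd82 (99585_at) in Btk KO against Xid.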
